A study of Mus musculus with 8 samples.

Results

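The Hox genes of the A, B, C and D clusters were followed in JoMa1, a mouse neural crest precursor line, and in lines grown from tumours that MYCN-transfected JoMa1 cells formed. Members were all probe sets whose annotation held a single gene symbol made of Hoxa, Hoxb, Hoxc or Hoxd and a number from 1 to 13. Antisense transcripts were not members. The rule took 48 of the 45037 probe sets that are not array controls, and these stand for 33 of 18193 genes. Hox genes without a probe set of their own were not analysed here. The 8 Affymetrix arrays held 4 tumour lines, numbered 3 to 6, 1 library of JoMa1 labelled as GFP-transfected, and parental JoMa1 on 3 arrays. JoMa1 is a single line that carries a tamoxifen-activated MYC fusion, so all groups share it. The tumour lines came from MYCN-transfected JoMa1 cells that formed tumours in immunocompromised mice. The labels call these samples both tumours and lines derived from tumours, and they are called lines here. The labels describe the tumours as independent but do not say whether they came from separate transfections, and nothing states separate cultures for the parental arrays. The p-values then measure only the spread between these arrays, which may be technical. The sources used here state neither the species of that MYCN nor whether tamoxifen was present.

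Hox genes encode homeodomain transcription factors that give cells their position along the head-to-tail axis. They lie in clusters in which the order of genes matches the order of their expression domains, with low numbers active towards the head and high numbers towards the tail. Genes with the same number in different clusters are paralogues, descended from a common ancestor. Neural crest cells carry such a code with them when they leave the neural tube, and cranial crest that builds the face lacks Hox expression. Chromatin complexes of the Polycomb and trithorax groups keep Hox genes off or on through cell divisions, retinoic acid induces them, and TALE homeodomain proteins of the MEIS and PBX families bind DNA together with HOX proteins.

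Values are RMA levels on the log2 scale, where a difference of 1 is 2-fold, and ± gives the SD over arrays of a group. A probe set was called when limma's two-sided test, adjusted by Benjamini-Hochberg over all 45037 probe sets, gave an adjusted p under 0.05. A gene with several probe sets is represented by the probe set of highest mean, unless another is named. Levels of different probe sets are not comparable with each other. The array medians ran from 6.26 to 6.30, and the bacterial trpnX controls, which should find no target, from 3.84 to 4.04. The labels were checked with Mycn, whose 3 probe sets moved in different ways. The brightest read 14.13, 14.08, 14.20 and 14.26 in tumour lines 3, 4, 5 and 6, 11.73 in the library labelled GFP-transfected, and 7.29, 7.49 and 7.49 on parental arrays 1, 2 and 3. A second read 4.69, 4.53, 4.62 and 4.56 in tumour lines 3, 4, 5 and 6, 4.33 in the library labelled GFP-transfected, and 8.23, 8.14 and 8.01 on parental arrays 1, 2 and 3, and was called lower in tumour lines (-3.53) and in the library labelled GFP-transfected (-3.80). The third was not called (0.30 in tumour lines and 0.12 in that library). The library labelled GFP-transfected thus goes against its label, since it differed from parental cells in the same directions as the tumour lines, by 4.31 with the brightest probe set. Of 14 neural crest markers, 2 were higher and 3 lower in tumour lines than in parental cells, where 35.0% of all genes were called, 16.0% higher and 19.0% lower. Tfap2b (-5.20), Zic1 (-4.48) and Pax3 (-1.17) were lower, and Msx1 (1.05) and Snai2 (0.53) were higher. Foxd3, Ngfr and Msx2 lay under the array median on all 8 arrays. Among markers of cells a tumour could bring along, 3 of 11 leukocyte genes were higher in tumour lines, Cd14 (1.83), Cd68 (0.80) and Lyz2 (0.49). Of the others, Ptprc, Itgam and Tyrobp lay under the median throughout. Of 8 endothelial genes 0 were called. Of 10 fibroblast genes 5 were higher and 2 lower, against the same shares of all genes. Thy1 (3.995), Fbln2 (3.02), Col1a2 (2.99), Pdgfra (2.56) and Col1a1 (0.61) were higher, and Fap (-5.31) and Col3a1 (-0.44) lower. Their summed level, which hides such opposite changes, was 94.6 to 102 in tumour lines, 64.0 in the library labelled GFP-transfected and 90.0 to 91.4 on parental arrays. In that library 7 of the 10 were lower than in parental cells and 0 higher. Parental cells themselves averaged 14.22 for Col3a1, 11.68 for Postn and 10.82 for Col1a1, so these genes do not mark only cells that a tumour brought along. The part of these fibroblast markers in the Hox results was not tested. These are bulk measurements, in which fewer cells of a kind and less RNA per cell cannot be told apart.

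The promoters of 4 genes are shown because the results turn on them. Hoxa9 and Hoxd9 are paralogues that moved in opposite directions, and Hoxd10 and Hoxd13 were high in a single tumour line. Each run holds 250 bases before and 50 after the start of the gene, from RefSeq on GRCm38.p6, and no source used here names a build for the arrays. Capitals mark CACGTG, the E-box that MYC proteins bind, and TATAAA, the TATA box, on either strand.
Hoxa9, chr6:52227321-52227620, minus strand: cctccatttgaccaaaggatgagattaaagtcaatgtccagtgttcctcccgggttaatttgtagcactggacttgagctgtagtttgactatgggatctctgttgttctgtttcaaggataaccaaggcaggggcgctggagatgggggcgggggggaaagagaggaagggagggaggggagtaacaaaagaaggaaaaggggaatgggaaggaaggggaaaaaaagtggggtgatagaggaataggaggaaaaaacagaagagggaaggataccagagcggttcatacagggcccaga
Hoxd9, chr2:74697513-74697812, plus strand: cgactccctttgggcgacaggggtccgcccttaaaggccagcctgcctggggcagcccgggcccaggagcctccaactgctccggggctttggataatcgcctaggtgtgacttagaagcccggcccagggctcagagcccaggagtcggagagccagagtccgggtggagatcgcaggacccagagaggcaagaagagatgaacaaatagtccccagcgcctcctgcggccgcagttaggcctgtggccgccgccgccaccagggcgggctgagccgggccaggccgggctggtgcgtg
Hoxd10, chr2:74691641-74691940, plus strand: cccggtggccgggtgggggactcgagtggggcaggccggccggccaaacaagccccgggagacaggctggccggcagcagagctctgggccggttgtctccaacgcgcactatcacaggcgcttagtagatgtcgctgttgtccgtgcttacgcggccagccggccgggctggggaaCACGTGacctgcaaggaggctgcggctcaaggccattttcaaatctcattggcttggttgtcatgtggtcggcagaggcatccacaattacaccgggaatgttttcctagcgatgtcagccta
Hoxd13, chr2:74667975-74668274, plus strand: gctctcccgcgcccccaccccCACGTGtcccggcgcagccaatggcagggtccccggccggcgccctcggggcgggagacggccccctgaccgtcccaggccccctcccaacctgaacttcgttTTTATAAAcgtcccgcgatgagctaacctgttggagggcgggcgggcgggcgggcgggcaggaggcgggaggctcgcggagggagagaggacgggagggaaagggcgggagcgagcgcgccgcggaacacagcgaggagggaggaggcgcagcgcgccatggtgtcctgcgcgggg
The RefSeq table held 24 promoters of Hox genes, for 22 genes. Only Hoxb1, Hoxb4 and Hoxb8 of the B cluster and Hoxc4 of the C cluster were among them, so these clusters cannot be compared with the A and D clusters. CACGTG was present in 5 of the 24 promoters (20.8%), against 7.15% of all 32851 promoters of the same length. Those 5 were all of the D cluster, of Hoxd1, Hoxd4, Hoxd10, Hoxd11 and Hoxd13, and the promoters of the A cluster held none. TATAAA was present in 16.7% of the Hox promoters and 13.6% of all, and its 2 matches in Hoxd13 lie on opposite strands and overlap. The composite HOX-PBX motif TGATNNAT, in 16.7% and 8.85%, had no match in the 4 promoters shown. CG pairs numbered 4 in the Hoxa9 run, 20 in Hoxd9, 22 in Hoxd10 and 37 in Hoxd13, against a median of 14.5 over the Hox promoters and 7 over all promoters. These matches describe the windows and say nothing about binding in these cells.

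The study's design sets the tumour lines against the cells they came from. In the A, B and C clusters, Hox genes that changed were lower in tumour lines, while in the D cluster the 2 that changed, Hoxd8 and Hoxd9, were higher. Of the 33 genes, 15 fell, 2 rose and 16 were not called. Over all genes 35.0% were called, 19.0% lower and 16.0% higher. A fall of at least 2-fold was called for 13 Hox genes and a rise of that size for 1, against 3.93% and 4.92% of all genes. The median difference of the 33 genes was -0.49, beside 0.01 over all genes. By probe set, 23 of 48 fell and 3 rose, where 29.5% of all probe sets were called, 16.4% lower and 13.1% higher. Tumour lines lay wholly below the parental arrays for 16 Hox genes and wholly above for 5, against 23.2% and 21.2% of all genes. When the library labelled GFP-transfected was dropped or joined to the parental group, the counts by probe set were again 23 lower and 3 higher, although the members differed in the joined fit, where Hoxd8 lost and Hoxb13 gained a call.

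**Figure D1:**
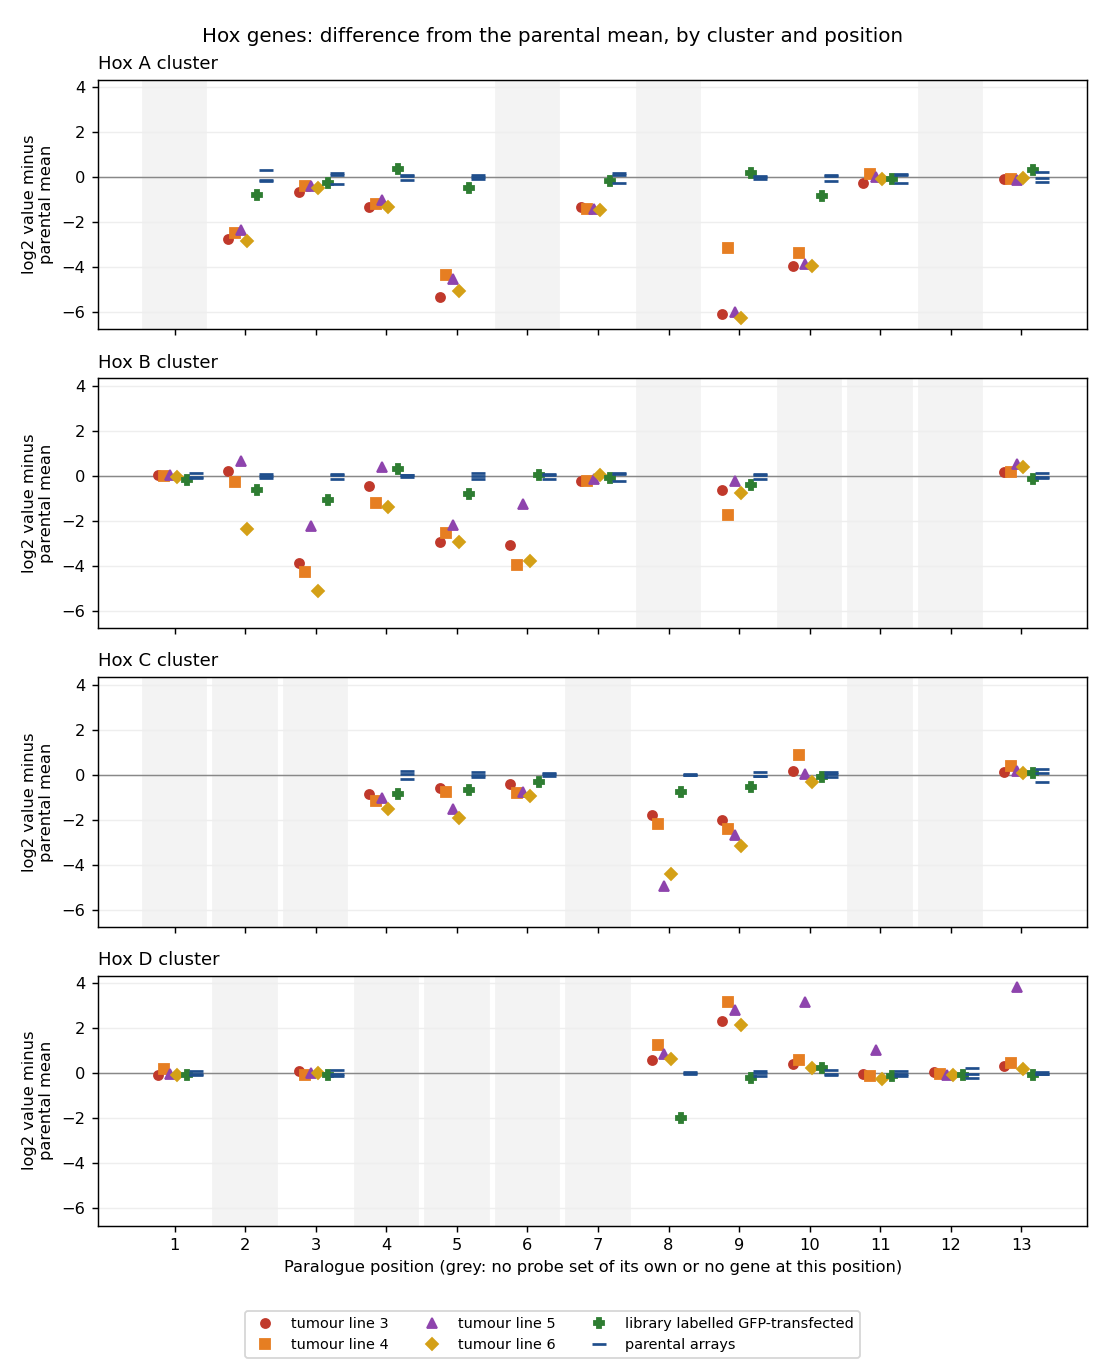
Each panel is a Hox cluster, with paralogue position on the x axis and the log2 value minus the parental mean on the y axis, 1 probe set per gene. Coloured symbols are the 4 tumour lines, green crosses the library labelled GFP-transfected and blue dashes the 3 parental arrays. Tumour lines sit below parental cells from Hoxa2 to Hoxa10 and from Hoxc4 to Hoxc9, and above them at Hoxd8 and Hoxd9.

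In the A cluster all measured genes from position 2 to position 10 fell. Of its 9 measured genes, 7 fell and 0 rose, with a median of -1.41, and the tumour lines lay below all parental arrays for the same 7. Over all genes 19.0% were called lower and 16.0% higher, and 23.2% lay wholly below the parental arrays. The largest fall was that of Hoxa9, a regulator of blood cell precursors that leukaemias overexpress. It read 5.14, 8.08, 5.21 and 4.95 in tumour lines 3, 4, 5 and 6, 11.42 in the library labelled GFP-transfected, and 11.15, 11.29 and 11.21 on parental arrays 1, 2 and 3. Tumour line 4 kept the highest level among the tumour lines, and all 4 lay far below the other arrays. The group means were 5.85 ± 1.49 in tumour lines and 11.22 ± 0.07 in parental cells, a difference of -5.37 (SE 0.67, 41.4-fold, limma adjusted p = 0.00039). Hoxa5, which patterns the neck and the lung, read 5.51, 6.49, 6.30 and 5.78 in tumour lines 3, 4, 5 and 6, 10.38 in the library labelled GFP-transfected, and 10.93, 10.83 and 10.77 on parental arrays 1, 2 and 3. The groups did not overlap, and the library labelled GFP-transfected lay close to parental cells. The difference was -4.82 (SE 0.21, 28.3-fold, limma adjusted p = 1.04e-06).

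Hoxa10, needed for the lumbar skeleton and the uterus, followed. It read 5.19, 5.78, 5.27 and 5.21 in tumour lines 3, 4, 5 and 6, 8.28 in the library labelled GFP-transfected, and 8.98, 9.21 and 9.22 on parental arrays 1, 2 and 3, and differed by -3.77 (SE 0.15, 13.7-fold, limma adjusted p = 5.05e-07). Its value in the library labelled GFP-transfected was below parental cells and well above the tumour lines. Hoxa2, the selector gene of the second pharyngeal arch, whose crest cells form bone of the middle ear and neck, read 4.12, 4.39, 4.54 and 4.05 in tumour lines 3, 4, 5 and 6, 6.10 in the library labelled GFP-transfected, and 7.19, 6.75 and 6.69 on parental arrays 1, 2 and 3. The difference was -2.60 (SE 0.15, 6.08-fold, limma adjusted p = 5.65e-06). Hoxa7, active in the trunk, read 7.004, 6.95, 6.93 and 6.88 in tumour lines 3, 4, 5 and 6, 8.19 in the library labelled GFP-transfected, and 8.44, 8.54 and 8.07 on parental arrays 1, 2 and 3. All 4 tumour lines stood within 0.12 of each other, below the remaining arrays, with a difference of -1.41 (SE 0.11, 2.65-fold, limma adjusted p = 2.97e-05). Hoxa4 was dim everywhere, under the array median on all 8 arrays. It read 3.70, 3.84, 4.01 and 3.69 in tumour lines 3, 4, 5 and 6, 5.41 in the library labelled GFP-transfected, and 5.06, 5.11 and 4.91 on parental arrays 1, 2 and 3, a difference of -1.22 (SE 0.10, 2.32-fold, limma adjusted p = 3.49e-05).

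Hoxa3, which patterns the third pharyngeal arch and its glands, had 4 probe sets with unlike changes. Its brightest differed by -0.49 (SE 0.12, 1.4-fold, limma adjusted p = 0.0159), and lost the call without parental array 2 (-0.43) or parental array 3 (-0.40). Another, which can bind more than 1 transcript, read 4.63, 4.70, 4.97 and 5.22 in tumour lines 3, 4, 5 and 6, 7.27 in the library labelled GFP-transfected, and 7.70, 7.13 and 7.37 on parental arrays 1, 2 and 3. That probe set separated the groups fully and differed by -2.52 (SE 0.17, 5.74-fold, limma adjusted p = 1.18e-05). The remaining pair differed by -0.78, called, and by -0.17, not called. Further probe sets of Hoxa5 (-1.87), Hoxa9 (-1.24), Hoxa10 (-0.98) and Hoxa4 (-0.37) were called lower too, by smaller amounts. That of Hoxa4 lost its call without parental array 1 (-0.34) or 3 (-0.29) and without tumour line 4 (-0.33) or 6 (-0.37). The end genes Hoxa11 (-0.05, SE 0.13) and Hoxa13 (-0.07, SE 0.11), which pattern the distal limb, were not called and lay under the array median throughout.

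In the B cluster the fall was patchy and differed between tumour lines. Of 9 genes, 3 fell and 0 rose, where 19.0% of all genes were lower and 16.0% higher, and the median was -0.67. Hoxb3, active in the hindbrain and its crest, read 5.97, 5.58, 7.64 and 4.75 in tumour lines 3, 4, 5 and 6, 8.79 in the library labelled GFP-transfected, and 9.96, 9.87 and 9.73 on parental arrays 1, 2 and 3. Tumour line 5 kept more signal than the other lines, and all 4 were below the parental arrays. The difference was -3.87 (SE 0.55, 14.6-fold, limma adjusted p = 0.000792), with -1.17 for its other probe set, also called. Hoxb6, a trunk gene, read 6.74, 5.87, 8.58 and 6.04 in tumour lines 3, 4, 5 and 6, 9.89 in the library labelled GFP-transfected, and 9.92, 9.70 and 9.86 on parental arrays 1, 2 and 3. Again tumour line 5 was highest among the lines and the library labelled GFP-transfected lay among the parental arrays. The difference was -3.02 (SE 0.56, 8.11-fold, limma adjusted p = 0.00344). Hoxb5, which acts in crest cells that build the nervous system of the gut, read 5.07, 5.50, 5.85 and 5.08 in tumour lines 3, 4, 5 and 6, 7.20 in the library labelled GFP-transfected, and 8.17, 7.88 and 8.03 on parental arrays 1, 2 and 3, a difference of -2.65 (SE 0.19, 6.28-fold, limma adjusted p = 1.45e-05). The groups did not overlap.

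The other B genes were not called in the fit of all arrays. Hoxb2, which patterns the hindbrain and facial nerve, was chosen for mention after its values were seen. It read 9.71, 9.21, 10.15 and 7.13 in tumour lines 3, 4, 5 and 6, 8.87 in the library labelled GFP-transfected, and 9.49, 9.54 and 9.39 on parental arrays 1, 2 and 3. Tumour line 6 lay far below the parental arrays and tumour line 4 just below them, while tumour lines 3 and 5 lay above them. Hoxb4, known for expanding blood stem cells, was lower than all parental arrays in tumour lines 3, 4 and 6 and higher in tumour line 5, and differed by -0.67 (SE 0.37). Without tumour line 5 it was called lower with both probe sets (-1.03 and -0.77). Hoxb9, a thoracic gene, stood at 10.05 ± 0.63 in tumour lines and 10.89 ± 0.11 in parental cells and differed by -0.84 (SE 0.29). It was called without tumour line 4 (-0.55) or tumour line 5 (-1.04). Hoxb13, a gene of the tail bud and prostate, differed by 0.32 (SE 0.11) and was called without parental array 2 (0.40) or tumour line 4 (0.37). Hoxb1 (0.01) and Hoxb7 (-0.13) were dim throughout. A probe set annotated to Hoxb7 and Hoxb8 jointly, not a member, differed by -2.36 (SE 0.17, 5.13-fold, limma adjusted p = 1.64e-05).

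In the C cluster the measured genes from position 4 to position 9 fell. Of 7 genes, 5 fell and 0 rose, where 19.0% of all genes were lower and 16.0% higher, and the median was -1.16. Hoxc8, which patterns thoracic vertebrae and motor neurons of the forelimb, read 9.65, 9.27, 6.54 and 7.05 in tumour lines 3, 4, 5 and 6, 10.70 in the library labelled GFP-transfected, and 11.48, 11.46 and 11.46 on parental arrays 1, 2 and 3. The parental arrays were within 0.014 of each other, and tumour lines 5 and 6 were much lower than tumour lines 3 and 4. The difference was -3.34 (SE 0.70, 10.1-fold, limma adjusted p = 0.00655). Hoxc9, which sets thoracic motor neuron identity, read 9.21, 8.82, 8.53 and 8.06 in tumour lines 3, 4, 5 and 6, 10.68 in the library labelled GFP-transfected, and 11.33, 11.17 and 11.15 on parental arrays 1, 2 and 3. All tumour lines were below all other arrays, and the difference from parental cells was -2.56 (SE 0.23, 5.91-fold, limma adjusted p = 5.55e-05). Hoxc4 and Hoxc5, genes of the neck and upper trunk, fell less. Hoxc4 read 7.41, 7.10, 7.23 and 6.76 in tumour lines 3, 4, 5 and 6, 7.44 in the library labelled GFP-transfected, and 8.45, 8.31 and 8.11 on parental arrays 1, 2 and 3, a difference of -1.16 (SE 0.15, 2.24-fold, limma adjusted p = 0.000476). Its value in the library labelled GFP-transfected was near that of the tumour lines.

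Hoxc5 read 7.91, 7.71, 6.98 and 6.58 in tumour lines 3, 4, 5 and 6, 7.82 in the library labelled GFP-transfected, and 8.61, 8.38 and 8.49 on parental arrays 1, 2 and 3. Tumour lines 5 and 6 were again the lowest, and the difference was -1.19 (SE 0.29, 2.29-fold, limma adjusted p = 0.013). It was not called without parental array 1 (-1.13), and its other probe sets differed by -0.26 and 0.01 without a call. Hoxc6, a marker of the neck-to-thorax boundary, fell by less than 2-fold, with -0.74 (SE 0.13) for its brightest probe set, -0.68 for a called one and -0.23 for one that was called only without tumour line 3 (-0.33). Hoxc10 (0.17, SE 0.24) and Hoxc13 (0.17, SE 0.14), active in the lumbar region and in hair and nails, were not called and lay under the array median on all 8 arrays.

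In the D cluster, Hoxd8 and Hoxd9 rose. These were 2 of 8 genes, and 0 fell, where 16.0% of all genes were higher and 19.0% lower. The median difference was 0.50, and the other 6 genes were not called. Hoxd9, which patterns the forelimb and the lumbar spinal cord, read 8.88, 9.72, 9.37 and 8.71 in tumour lines 3, 4, 5 and 6, 6.34 in the library labelled GFP-transfected, and 6.46, 6.65 and 6.58 on parental arrays 1, 2 and 3. All 4 tumour lines stood above all other arrays, with a difference of 2.61 (SE 0.22, 6.1-fold, limma adjusted p = 4.02e-05). Hoxd8, its neighbour in the cluster, read 9.34, 10.01, 9.63 and 9.39 in tumour lines 3, 4, 5 and 6, 6.75 in the library labelled GFP-transfected, and 8.80, 8.75 and 8.71 on parental arrays 1, 2 and 3 with its brightest probe set. The groups were fully apart, in the order tumour lines, parental arrays, the library labelled GFP-transfected. The difference between tumour lines and parental cells was 0.83 (SE 0.15, 1.78-fold, limma adjusted p = 0.00297), and a second probe set that can bind several transcripts read 8.68, 9.23, 8.84 and 8.69 in tumour lines 3, 4, 5 and 6, 6.75 in the library labelled GFP-transfected, and 7.89, 7.91 and 7.68 on parental arrays 1, 2 and 3, a difference of 1.04 (SE 0.14, 2.05-fold, limma adjusted p = 0.000558). When the library labelled GFP-transfected joined the parental group, the brightest Hoxd8 probe set was not called (1.34).

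Further towards the tail end of the cluster, tumour line 5 stood alone. These genes were chosen for mention after their values were seen. Hoxd10, which sets lumbar motor neuron identity, read 4.15, 4.33, 6.92 and 3.98 in tumour lines 3, 4, 5 and 6, 3.96 in the library labelled GFP-transfected, and 3.65, 3.70 and 3.87 on parental arrays 1, 2 and 3. Hoxd13, the gene of the digits and the genital bud, read 5.67, 5.80, 9.19 and 5.58 in tumour lines 3, 4, 5 and 6, 5.28 in the library labelled GFP-transfected, and 5.44, 5.34 and 5.32 on parental arrays 1, 2 and 3. Hoxd11, which shapes the forearm and kidney, read 4.30, 4.22, 5.40 and 4.12 in tumour lines 3, 4, 5 and 6, 4.22 in the library labelled GFP-transfected, and 4.25, 4.48 and 4.34 on parental arrays 1, 2 and 3. Tumour line 5 was high for all 3 genes, and the other tumour lines stood between -0.23 and 0.59 from the parental mean. In the fit of all arrays the differences were 1.10 (SE 0.63), 1.19 (SE 0.79) and 0.16 (SE 0.28), and 0 of the 3 were called. Without tumour line 5, Hoxd10 (0.41) and Hoxd13 (0.32) were called higher at these smaller sizes. A dimmer probe set of Hoxd13 read 6.36 in tumour line 5 and 5.57 to 6.06 in the other lines. Hoxd12, between Hoxd11 and Hoxd13, read 4.64 in tumour line 5 and 4.65 to 4.77 in the other lines. Hoxd1 (-0.0025), Hoxd3 (0.02) and Hoxd12 (-0.03) were not called and lay under the array median throughout. So did Hoxd11. A pair of probe sets annotated to Hoxd3 and Hoxd4 jointly differed by -0.01 and -0.05 and was not called.

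**Figure D2:**
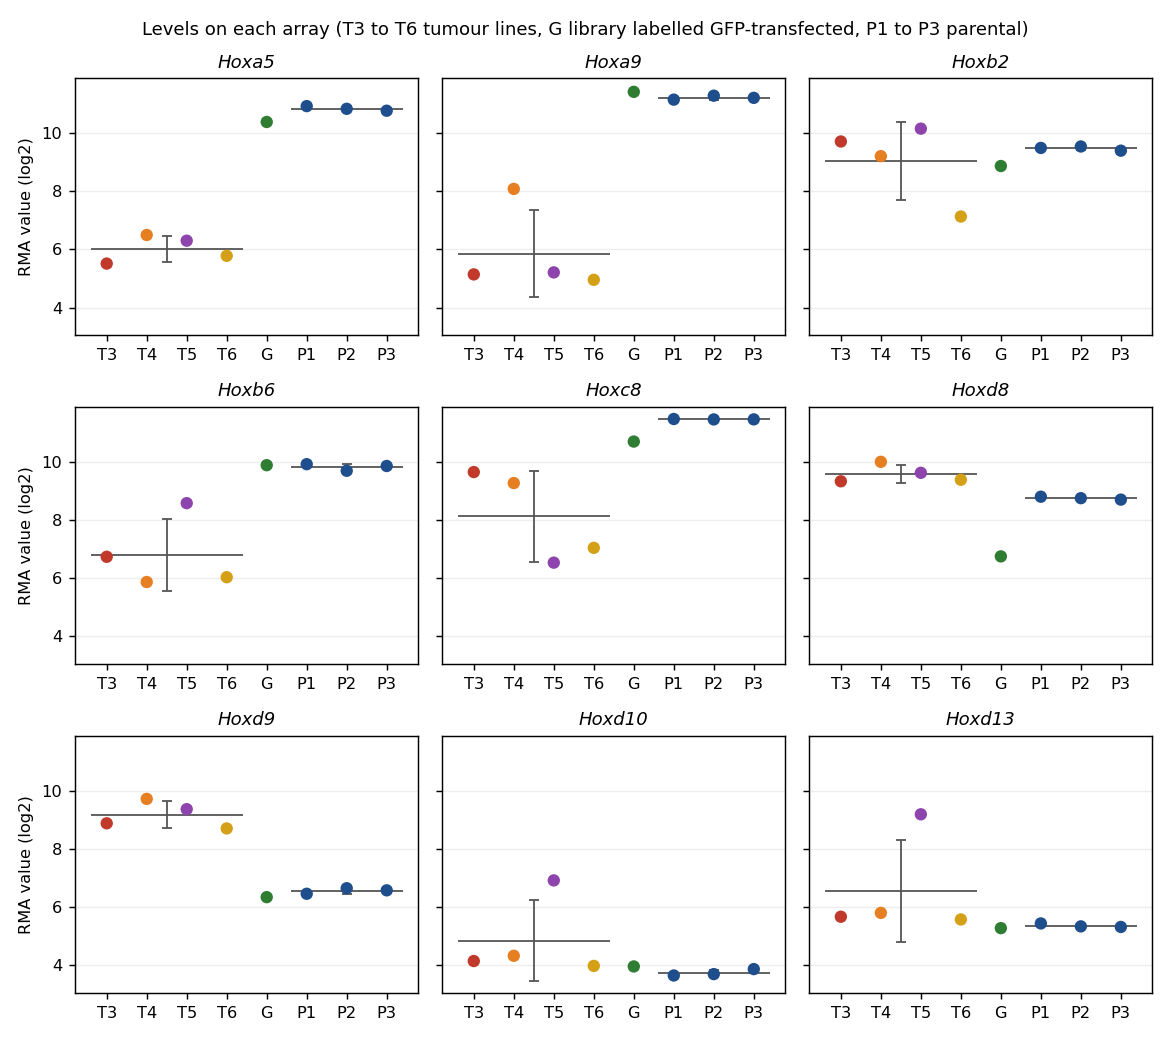
RMA value (log2, y axis) of 9 Hox genes on each of the 8 arrays (x axis), with T3 to T6 for the tumour lines, G for the library labelled GFP-transfected and P1 to P3 for the parental arrays. Grey lines are the group means and error bars the SD of the 4 tumour lines and of the 3 parental arrays. Hoxa5 and Hoxa9 are low in all tumour lines, Hoxd9 is high in all, and Hoxd10 and Hoxd13 are high in tumour line 5.

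Set side by side, paralogues did not move as a unit. At position 9 the differences between tumour lines and parental cells were -5.37 for Hoxa9, -0.84 for Hoxb9, -2.56 for Hoxc9 and 2.61 for Hoxd9. At position 8, Hoxc8 fell by 3.34 and Hoxd8 rose by 0.83. At position 5, Hoxa5 (-4.82), Hoxb5 (-2.65) and Hoxc5 (-1.19) all fell. At position 10, Hoxa10 fell by 3.77, whereas Hoxc10 (0.17) and Hoxd10 (1.10) were not called. Along the axis, 5 of 10 genes at positions 1 to 4 fell and 0 rose, with a median of -0.58. At positions 5 to 8, 7 of 9 fell and 1 rose (median -1.41), and at positions 9 to 13, 3 of 14 fell and 1 rose (median 0.06). Over all genes 19.0% were lower and 16.0% higher. The share that fell at positions 9 to 13 was thus near that of all genes. There 7 of the 14 genes lay under the array median on all 8 arrays, against 1 of 9 at positions 5 to 8 and 4 of 10 at positions 1 to 4. Under the array median on all 8 arrays lay 12 of the 33 genes, against 32.7% of all genes. Of these 1 was called, Hoxa4, and 7 of them are at positions 10 to 13. Differences of such dim genes are compressed by RMA.

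The library labelled GFP-transfected was compared with parental cells next, with the limits that it is 1 array, assumed to vary like the other groups, and that its Mycn goes against its label. Of 33 genes, 3 were lower and 0 higher, where 14.9% of all genes were called, 8.01% lower and 6.86% higher, and the median difference was -0.16. Hoxd8 differed by -2.002 (SE 0.23, 4.01-fold, limma adjusted p = 0.000824), with -1.08 for its second probe set, also called. Its direction was opposite to that of the tumour lines. Hoxa10 differed by -0.85 (SE 0.22, limma adjusted p = 0.0413) and Hoxc4 by -0.85 (SE 0.23, limma adjusted p = 0.0451). The call of Hoxa10 ended without any 1 of the 3 parental arrays (-0.93, -0.82 and -0.81) and without tumour line 6, and that of Hoxc4 without any of them (-0.77, -0.83 and -0.94) and without tumour line 4 or 5. Repeated quantile normalization also ended the Hoxc4 call (-0.80). The dimmer probe set of Hoxa10, under the array median on all 8 arrays, was called lower too (-0.56, SE 0.14, limma adjusted p = 0.0357). It kept its call without each parental array and lost it only without tumour line 3 or 6. Hoxb3 (-1.06), Hoxa5 (-0.46), Hoxa9 (0.20), Hoxb6 (0.06), Hoxc8 (-0.77), Hoxc9 (-0.54) and Hoxd9 (-0.22) were not called. Of these, Hoxb3, Hoxa5, Hoxc8, Hoxc9 and Hoxd9 lay below all parental arrays, Hoxa9 above them and Hoxb6 among them. The fit shares an estimate of the spread over all groups, so genes that vary widely among tumour lines were hard to call here. A missing call does not show parental levels. Hoxa2 (-0.78) and Hoxb5 (-0.83) were called lower without tumour line 5 and in no other fit. The value in this library lay below all parental arrays for 18 of the 33 genes, against 35.3% of all genes, and above them for 5, against 35.9%. By probe set 5 of 48 were called, all lower, against 11.8% of all probe sets called, 5.5% lower and 6.31% higher, and 3 without parental array 1, 2 or 3 or tumour line 6.

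Tumour lines were then set against the library labelled GFP-transfected, a comparison that shares its arrays with the previous ones. Here 10 Hox genes were lower and 2 higher, where 29.4% of all genes were called, 15.9% lower and 13.6% higher, and the median was -0.32. By probe set 17 were lower and 3 higher, against 24.9% of all called, 15.0% lower and 9.97% higher. In the A cluster 6 of 9 genes were lower, among them Hoxa9 (-5.57, SE 0.98), Hoxa5 (-4.36, SE 0.31) and Hoxa10 (-2.92, SE 0.22). Their values in tumour lines against parental cells were -5.37, -4.82 and -3.77. Hoxd8 (2.84, SE 0.22) and Hoxd9 (2.83, SE 0.32) were higher. In the C cluster Hoxc9 alone was called (-2.02, SE 0.33). Hoxc8 differed by -2.57 (SE 1.03) and was called without tumour line 3 (-3.08), and Hoxc4 differed by -0.32 (SE 0.22). The calls of Hoxb3 (-2.80, SE 0.80) and Hoxb6 (-3.08, SE 0.82) ended under a trended robust variance prior, and that of Hoxb3 also without any 1 of the 3 parental arrays or without tumour line 3 (-2.80) or 4 (-2.67). The value in this library lay above all 4 tumour lines for 15 of 33 Hox genes, against 32.4% of all genes, below them for 6, against 35.5%, and among them for 12.

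Over the 33 Hox genes, levels spread more widely among the 4 tumour lines than among the 3 parental arrays, but the A cluster did not share this by its median. Highest and lowest tumour line were at least 2-fold apart for 14 of 33 Hox genes, against 4.61% of all genes, and the parental arrays for 0 of 33, against 0.0385%. The median span was 0.67 among tumour lines, beside 0.28 over all genes, and 0.23 among parental arrays, beside 0.15. In the A cluster it was 0.41 among tumour lines and 0.42 among parental arrays, and 1 of 9 genes spanned 2-fold. The medians were 1.49 and 0.23 in the B cluster, 1.15 and 0.23 in the C cluster and 0.84 and 0.21 in the D cluster. For the 12 dim genes they were 0.29 and 0.25. Each line is 1 array, so these spans have no replicate check, and the count was 9 without tumour line 5 or without tumour line 6. Leaving out a line cannot widen a span. Highest minus lowest tends to grow with the number of arrays, here 4 against 3, and the parental arrays may be technical repeats. The spans of tumour lines and parental arrays are therefore not on an equal footing. Hoxd13 (3.62), Hoxa9 (3.13), Hoxc8 (3.12), Hoxb2 (3.02), Hoxd10 (2.94), Hoxb3 (2.89) and Hoxb6 (2.71) spanned most. In the A cluster the median difference from the parental mean was -1.34, -1.39, -1.42 and -1.47 in tumour lines 3, 4, 5 and 6, although Hoxa9 and Hoxa10 stood apart in tumour line 4. In the B cluster it was -0.46, -1.22, -0.14 and -1.39, and tumour line 5 was the highest line for 7 of 9 genes. The C cluster gave -0.58, -0.84, -1.06 and -1.53, with tumour line 6 lowest for 6 of 7 genes and tumour line 3 highest for 5. In the D cluster the medians were 0.20, 0.31, 0.96 and 0.12.

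**Figure D3:**
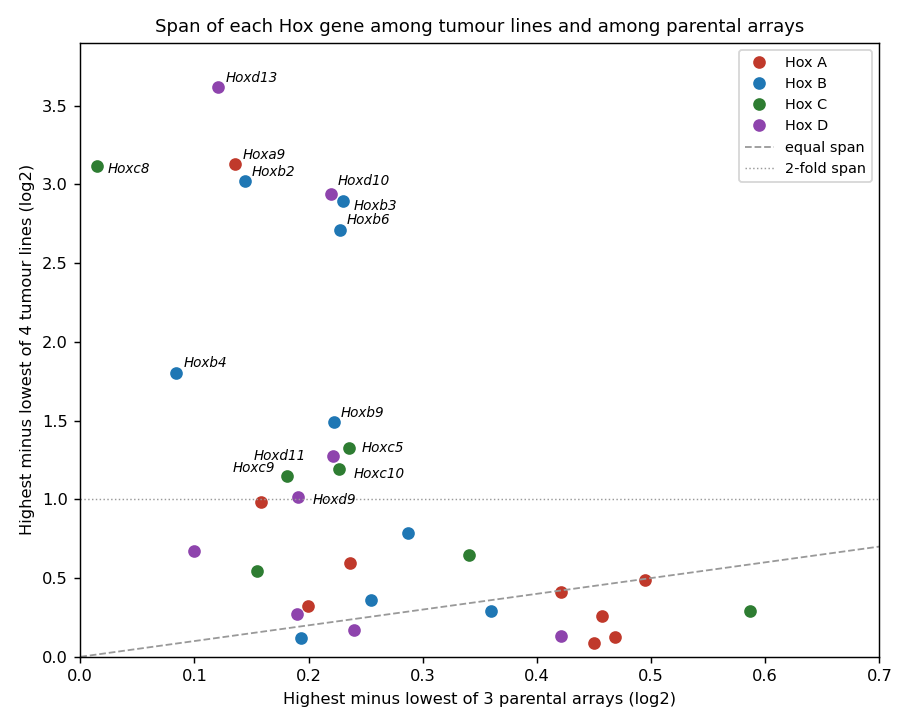
Each point is a Hox gene, coloured by cluster, with the span of the 3 parental arrays on the x axis and the span of the 4 tumour lines on the y axis (both highest minus lowest, log2). The dashed line marks equal spans and the dotted line a 2-fold span among tumour lines, above which 14 named genes lie.

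To see whether the change went beyond the clusters, the nearest 5 genes with a probe set on either side of each cluster were read, in RefSeq order. Of these 40 genes, 9 were lower and 7 higher in tumour lines, where 19.0% and 16.0% of all genes were, and their median difference was -0.02. Under the array median on all 8 arrays lay 10 of the 40, among them Evx1 and Evx2. Differences of such dim genes are compressed, so a missing call there does not show that the flank was unchanged. A change of at least 2-fold was called for 1 of them, Snx10, a sorting nexin gene beside the A cluster (1.72, SE 0.11). Skap2, between Snx10 and the A cluster, differed by -0.24 (SE 0.07), and Evx1, the homeobox gene next to Hoxa13, by -0.09 (SE 0.08) without a call. Nfe2l3 (-0.60, SE 0.08), Hnrnpa2b1 (-0.47, SE 0.07) and Jazf1 (-0.43, SE 0.10), further from the A cluster, were lower. At the D cluster, Evx2 (-0.05) and Lnpk (-0.18) beside Hoxd13 were not called, and Mtx2 beyond Hoxd1 was lower (-0.42, SE 0.09). Atf2 (-0.83, SE 0.15), the largest fall among the 40 genes, and Atp5g3 (-0.37, SE 0.07) were lower on the Hoxd13 side. At the B cluster, Snf8 (0.80, SE 0.08) and Snx11 (0.55, SE 0.09) were higher, as was Ube2z (0.25). At the C cluster, Hnrnpa1 (-0.69, SE 0.07) and Cbx5 (-0.41, SE 0.10) were lower, and Atf7 (0.39), Calcoco1 (0.36) and Tarbp2 (0.36) were higher. The span among tumour lines was 0.64 at most in these 40 genes, with a median of 0.22.

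**Figure D4:**
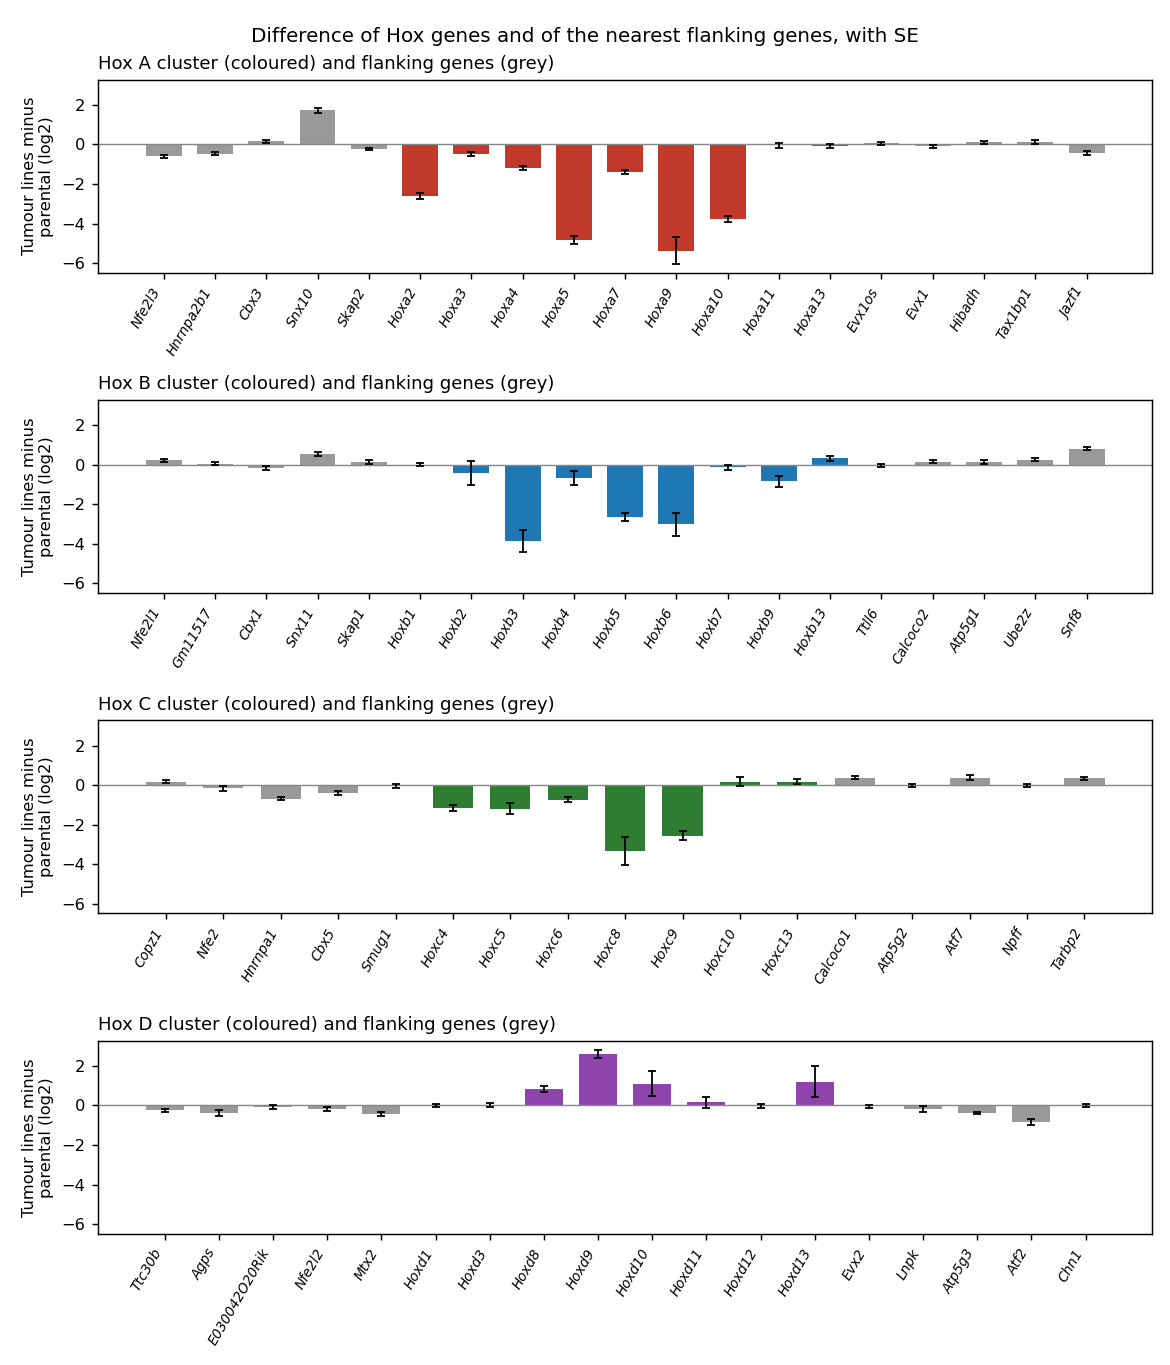
Difference between tumour lines and parental cells (log2, bars, with SE) for the Hox genes of each cluster in colour, by position, and for the 5 nearest genes with a probe set on either side in grey. Flanking genes stay between -0.83 and 1.72, while Hox genes reach -5.37 and 2.61.

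Partners and regulators of Hox genes were read from lists, beside the 35.0% of all genes called between tumour lines and parental cells. Among TALE cofactor genes, 7 of 10 measured were lower and 0 higher, with a median of -0.67. Meis2 (-1.79, SE 0.11), Pbx3 (-1.55, SE 0.19) and Meis1 (-1.19, SE 0.26), whose proteins bind DNA with HOX proteins, fell most. Meis2 read 8.75, 8.83, 8.58 and 9.06 in tumour lines 3, 4, 5 and 6, 9.54 in the library labelled GFP-transfected, and 10.66, 10.54 and 10.59 on parental arrays 1, 2 and 3, with the library labelled GFP-transfected between the other groups. Polycomb genes went both ways, 5 of 23 higher and 7 lower (median -0.10), with Bmi1 (-0.94, SE 0.09), Kdm2b (-0.91, SE 0.07) and Cbx2 (-0.91, SE 0.13), all of the Polycomb repressive complex that modifies histone H2A, falling most. Without parental array 3, 6 of the 23 were called. Ezh2, the histone methyltransferase of the other Polycomb complex, differed by -0.19 (SE 0.07) and was not called. Of 18 trithorax and MLL complex genes, 9 fell and 1 rose (median -0.30). Men1, which encodes the menin scaffold of MLL complexes, fell by 1.16 (SE 0.11), Mllt1 by 1.02 (SE 0.09), and Mllt3, a partner in MLL fusions, rose by 0.88 (SE 0.11).

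Genes of the retinoic acid pathway went both ways, 3 of 16 higher and 4 lower, with a median of -0.03. The carrier gene Crabp1 (-2.82, SE 0.13), the receptor gene Rarb (-2.73, SE 0.12), itself a target of retinoic acid, and the retinol uptake gene Stra6 (-2.47, SE 0.16) were lower, as was the retinal reductase gene Dhrs3 (-1.86, SE 0.18). The other carrier gene Crabp2 (1.73, SE 0.28), the degrading enzyme gene Cyp26b1 (1.52, SE 0.43) and the receptor gene Rarg (0.46, SE 0.07) were higher. In the library labelled GFP-transfected, 7 of the 16 were lower than in parental cells and 0 higher, where 8.01% of all genes were lower and 6.86% higher. Of these 7, 6 were lower by at least 2-fold, and the largest difference was -4.67. Crabp2 differed from parental cells by -1.74 in that library. Crabp1 was as low in the library labelled GFP-transfected, -2.97 from parental cells. Of 10 Hox inducers and ParaHox genes, 1 fell, the hindbrain gene Egr2 (-2.12, SE 0.11). Its value in the library labelled GFP-transfected differed from parental cells by -2.42, and with that library added to the parental group Egr2 was not called (-1.51). Without parental array 3, 2 genes of that list were called. Of 4 noncoding transcripts of the clusters with a probe set, 1 was called, Hoxb5os, annotated as the opposite strand of Hoxb5. It read 6.57, 6.89, 6.51 and 5.87 in tumour lines 3, 4, 5 and 6, 10.40 in the library labelled GFP-transfected, and 10.70, 10.79 and 10.68 on parental arrays 1, 2 and 3. Like Hoxb5 it fell, with a difference of -4.26 (SE 0.20, 19.2-fold, limma adjusted p = 1.50e-06). Whether the probe sets of Hoxb5 and Hoxb5os share sequence was not analysed here. Without tumour line 4 a further transcript of that list was called, 2 in all.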

How the data were processed

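RNA from cells was hybridised to Affymetrix arrays, and the authors deposited log2 values per probe set. RMA and Partek are named, without their roles, per the submitters' processing notes, and the scale was read from the values. RMA as usually run corrects background, normalizes quantiles across arrays and summarizes probes, which compresses differences of dim probe sets. No genome build is named in the sources used here. No counts exist, so precision is limited by the number of arrays, 4 tumour lines, 1 library labelled GFP-transfected and 3 parental arrays.

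From the 45101 probe sets in the table, 64 controls were left out. A linear model with a mean per group was fitted over the 8 arrays with limma 3.58.1 (lmFit and eBayes, R 4.3.3), and p-values were adjusted by Benjamini-Hochberg over all 45037 probe sets for each of 3 comparisons. Genes were named from the platform annotation, using probe sets with a single symbol. The 16 Hox genes described array by array first are those with a probe set called between tumour lines and parental cells at a difference of at least 2-fold, the brightest such probe set being used, and genes outside that rule were chosen after their values were seen. The Hox members and all other lists were chosen with earlier results of these data known. Tested on simulated data for that comparison over 45037 probe sets, the model recovered 85 of 100 changes of 1 and 98 of 100 changes of 2 on the log2 scale, with 12 false calls. The simulation used independent normal noise of equal SD in all groups and changed no other probe sets. In the data 29.5% of probe sets were called, and the median span was 0.28 among tumour lines and 0.15 among parental arrays. These rates need not hold for the Hox genes. Alternatives were repeated quantile normalization, median centring, array weights, a trended robust variance prior, a filter on dim probe sets, 1 probe set per gene, removal of cross-hybridising probe sets, other uses of the library labelled GFP-transfected, and leaving out each array.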

Additional observations from a re-analysis of the deposited data

Results flagged for a closer look

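Among the 4 tumour lines, a single line stood far from the other lines for 6 of 48 Hox probe sets (12.5%). The rate of about 1 in 20 by chance is nominal, and the share over all probe sets was not analysed here. Whether Hox probe sets exceed that share was not tested. Tumour line 5 stood apart for Hoxd13 at 9.19, against 5.58 to 5.80 in the other tumour lines, for Hoxd10 at 6.92, against 3.98 to 4.33, and for Hoxd11 at 5.40, against 4.12 to 4.30. Tumour line 4 stood apart for Hoxa9 at 8.08, against 4.95 to 5.21, for Hoxa10 at 5.78, against 5.19 to 5.27, and for Hoxd1, a dim gene, at 4.21, against 3.94 to 3.97. Each line is 1 array, and the probe sets of neighbouring genes are not independent.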

How the results depend on the processing

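Between tumour lines and parental cells, 26 Hox probe sets were called, 24 to 31 when single arrays were left out, and 17 with 1 probe set per gene, where fewer were tested. For the library labelled GFP-transfected against parental cells, 5 were called, 3 to 6 with single arrays left out and 3 with 1 probe set per gene. Between tumour lines and that library, 20 were called, 18 to 21 with single arrays left out and 12 with 1 probe set per gene. Hox genes spanning at least 2-fold among tumour lines numbered 14, and 9 to 13 with a tumour line left out, which cannot widen a span. For the 16 named Hox genes, 248 of 249 values for tumour lines against parental cells kept direction and call, the exception being Hoxc5 without parental array 1 (-1.13), and 0 reversed. These are the probe sets called at 2-fold or more, which for Hoxa3 and Hoxd8 are not the brightest. The brightest of Hoxa3 lost its call without parental array 2 (-0.43) or 3 (-0.40), and that of Hoxd8 when the library labelled GFP-transfected joined the parental group (1.34). Among 14 named genes of other lists, 217 of 218 values kept direction and call, the exception being Egr2. Against parental cells, the library labelled GFP-transfected lost 10 and gained 2 of 217 calls of named Hox genes, and tumour lines against that library lost 7 and gained 1 of 217. No paired analysis was possible because no label links a parental array to a tumour line. The library labelled GFP-transfected is 1 array, JoMa1 is 1 line, and probe sets near background understate differences.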
